A study of Mus musculus with 30 samples.

Results

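The 10 genes described here belong to the antioxidant programme of NRF2, the transcription factor encoded by Nfe2l2. They are Nfe2l2 itself, Keap1, Gclc, Gclm, Txnrd1, Srxn1, Hmox1, Osgin1, Gsta4 and Gstm1. They were chosen by name, as the rows of the deposited gene count table whose GENCODE vM23 identifiers carry these symbols, and all 10 were found among its 55421 genes. All 10 passed the filter on low counts and were among the 19868 genes tested, although Osgin1, at a mean of 5.87 counts per library, passed through its treated libraries alone.

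The 30 libraries of polyadenylated RNA form 10 groups of 3 and come from E14 cells, which are embryonic stem cells of a male 129P2/Ola mouse. All groups were grown in serum with leukemia inhibitory factor, the kinase inhibitors PD0325901 and CHIR-99021, and 550 µM b-mercaptoethanol, a thiol reductant. The 5 lines, each named in the labels by a single line name, all express Tir1, the plant F-box protein that binds proteins carrying an auxin-inducible degron (AID) when auxin is present. The TIR1 line has no degron. The PDS5AB line has AID on PDS5A and PDS5B, and the WAPL line has AID on WAPL. The PDS5AB-NIPBL line has AID on PDS5A and PDS5B together with NIPBL-FKBP and RAD21-Halo, and the WAPL-NIPBL line has AID on WAPL together with NIPBL-FKBP and RAD21-Halo. All of these tagged proteins belong to cohesin, the ring that folds chromatin into loops, or regulate it. Each line was sampled untreated and after 24 h with 500 µM auxin, to which 500 nM dTAG-13, the ligand that drives degradation of FKBP fusions, was added for the PDS5AB-NIPBL and WAPL-NIPBL lines. Auxin in the TIR1 line was given where there is no degron to act on. No group received dTAG-13 alone, so that dTAG-13, the loss of NIPBL and auxin cannot be told apart in the lines that received both. The question asked here is how far the NRF2 genes, which report chemical and oxidative stress, moved with these treatments.

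NRF2 is held at a low level by KEAP1, which presents it to a CUL3 ubiquitin ligase. Electrophiles and oxidants modify cysteines of KEAP1, and NRF2 then accumulates, pairs with small MAF proteins and binds antioxidant response elements, whose core reads TGACNNNGC or TGAGNNNGC. Its targets rebuild glutathione and reduced thioredoxin, conjugate reactive compounds and degrade heme. Because KEAP1 acts on the NRF2 protein, a change of NRF2 activity need not show in the Nfe2l2 transcript, and the protein was not measured here.

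Total counts ran from 19632704 to 45539021 fragments per library, and Pearson's r of log2 CPM (fragments scaled to library size) between replicates was at least 0.987. Mitochondrial transcripts took 2.47% to 3.55% of counts. The 8 markers of embryonic stem cells (Pou5f1, Sox2, Nanog, Klf4, Zfp42, Esrrb, Tfcp2l1 and Dppa5a) were present in every group, and their summed level ran from 4167 to 6998 CPM over the 30 libraries. Library numbers in the labels fall into a set up to 21, which holds untreated TIR1 and both PDS5AB groups, and a set from 25, which holds auxin-treated TIR1 and all groups of the other 3 lines. The effect of auxin in TIR1 thus lies across the 2 sets of library numbers, and the set and the treatment cannot be told apart there, whereas the other 4 treatment effects each lie within 1 set. Nothing in the labels says that replicates were separate cultures, so p-values measure the spread between these libraries, which may be technical.

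Promoter sequence was available for 7 of the 10 genes, as RefSeq windows on GRCm38.p6 that run from 250 bases before to 50 bases after an annotated start. Both strands were searched for the antioxidant response element cores TGACNNNGC and TGAGNNNGC. The 7 genes have 10 windows, some genes having several starts. At least 1 of the cores was present in 5 of the 10 windows, each of another gene, and in 27.8% of all 32851 RefSeq promoter windows of that length (12.4% for TGACNNNGC and 17.6% for TGAGNNNGC). A match describes the letters and is no evidence of binding. The 4 windows below are shown because Srxn1, Txnrd1 and Nfe2l2 were higher after auxin in both TIR1 and PDS5AB cells, while Gclm passed the test in no line although its window also holds a core. Each is written 5′ to 3′ on the strand of the gene, with the matches in capitals. The first is chr2:152105274-152105573 (plus strand), the second chr10:82858956-82859255 (plus strand, 1 of the starts of Txnrd1), the third chr2:75704614-75704913 (minus strand) and the last chr3:122245307-122245606 (plus strand).
Srxn1: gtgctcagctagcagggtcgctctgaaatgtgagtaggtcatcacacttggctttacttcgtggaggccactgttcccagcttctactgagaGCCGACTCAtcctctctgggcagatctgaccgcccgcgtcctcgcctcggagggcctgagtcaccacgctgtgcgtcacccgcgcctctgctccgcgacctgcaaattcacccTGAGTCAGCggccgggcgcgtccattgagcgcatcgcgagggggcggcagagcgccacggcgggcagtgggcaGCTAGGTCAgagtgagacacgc
Txnrd1: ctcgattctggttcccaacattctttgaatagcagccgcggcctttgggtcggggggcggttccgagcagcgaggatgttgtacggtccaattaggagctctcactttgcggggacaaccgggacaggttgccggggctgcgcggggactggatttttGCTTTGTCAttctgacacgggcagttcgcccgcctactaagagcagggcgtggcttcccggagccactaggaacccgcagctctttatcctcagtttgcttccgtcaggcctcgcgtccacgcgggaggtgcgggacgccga
Nfe2l2: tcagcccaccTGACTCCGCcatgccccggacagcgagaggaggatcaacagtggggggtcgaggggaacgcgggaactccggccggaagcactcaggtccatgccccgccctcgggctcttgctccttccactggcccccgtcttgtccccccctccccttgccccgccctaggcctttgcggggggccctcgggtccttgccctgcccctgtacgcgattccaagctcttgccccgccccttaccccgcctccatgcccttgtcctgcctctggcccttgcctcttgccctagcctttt
Gclm: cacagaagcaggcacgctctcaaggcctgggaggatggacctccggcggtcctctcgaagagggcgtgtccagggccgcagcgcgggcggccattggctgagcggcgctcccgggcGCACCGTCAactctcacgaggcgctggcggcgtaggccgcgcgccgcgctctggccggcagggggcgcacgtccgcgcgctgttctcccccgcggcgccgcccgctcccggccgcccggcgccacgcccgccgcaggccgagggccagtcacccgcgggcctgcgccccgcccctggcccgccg
Srxn1 holds 3 matches, of which TGAGTCAGC on the gene's strand begins at position -45 from the start, and its matches on the other strand begin at -158 and 29. The single matches of Txnrd1, Nfe2l2 and Gclm begin at -92, -240 and -134. Osgin1 has a match at -99, and the windows of Gstm1 and Keap1 hold neither core.

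Per length, as TMM-scaled RPKM, the fragments divided by exon length and library size, averaged over all 30 libraries, Gsta4 was the most abundant of the 10 genes at 346 RPKM. Txnrd1 (39.4 RPKM), Hmox1 (37.1), Nfe2l2 (34.97) and Gstm1 (32.7) formed a middle group, followed by Srxn1 (24.0), Gclc (23.1), Gclm (12) and Keap1 (8.08). Osgin1 stood at 0.0754 RPKM, with 0 to 13 fragments in any library. The mean level over the 10 groups spanned a ratio of 1.18 for Txnrd1, 1.31 for Gclm, 1.39 for Nfe2l2, 1.64 for Gsta4 and for Keap1, 1.86 for Hmox1, 1.95 for Srxn1, 2.00 for Gclc and 2.56 for Gstm1. Neighbouring groups in the order of levels mostly overlapped in their libraries. Of the 9 neighbouring pairs for each gene, 3 were separated for Gclc and Srxn1, 2 for Gstm1 and Nfe2l2, 1 for Hmox1, Gsta4 and Osgin1, and 0 for Gclm, Txnrd1 and Keap1. The same count was not made over all genes, so these numbers describe the order and set no gene apart.

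**Figure D1:**
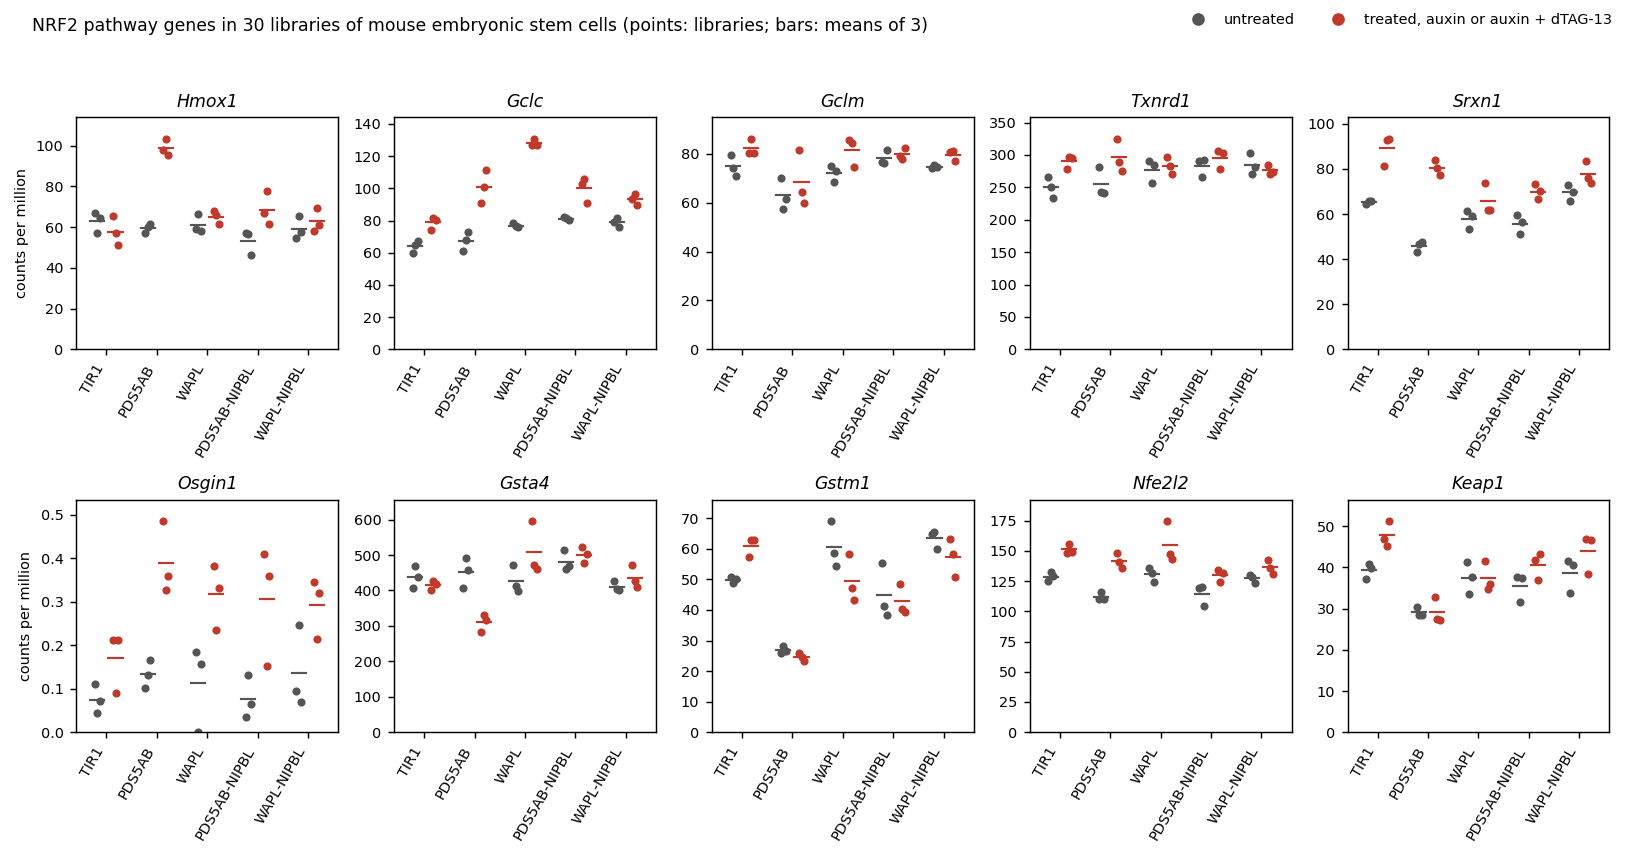
Level of each of the 10 genes in CPM (y axis, from 0) in the 5 lines (x axis), untreated in grey and treated in red, with 1 point per library and a bar at the mean of 3. Hmox1 in auxin-treated PDS5AB cells and Gclc in auxin-treated WAPL cells stand above every other group, and Gstm1 is lowest in both PDS5AB groups.

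In TIR1 cells, where no protein carries a degron, auxin went with higher transcripts of Srxn1, Gclc, Keap1, Nfe2l2 and Txnrd1, by 1.16-fold to 1.37-fold. None of the 10 genes passed the test downward. Thus 5 of the 9 genes other than Osgin1 were called higher at an adjusted p under 0.05 (edgeR's quasi-likelihood test, Benjamini-Hochberg adjustment over all genes tested), where 10.4% of all genes tested were called higher and 9.59% lower. Osgin1 is left out of the counts and medians of the treatment effects, because it was tested only through its treated libraries. The median log2 change was 0.23 over the 9 genes and -0.01 over all genes tested.

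Sulfiredoxin, the product of Srxn1, restores overoxidised peroxiredoxins. Srxn1 (GRCm38 chromosome 2, 152105516 to 152111376, plus strand) stood at 64.5, 65.9 and 66.0 CPM in untreated TIR1 libraries and at 81.5, 93.0 and 93.5 CPM after auxin. Its groups did not overlap, as was the case for 7 of the 9 genes and 39.2% of all genes in this comparison. The log2 fold change was 0.45 (SE 0.0759, adjusted p = 8.54e-05). Gclc, the catalytic subunit of the enzyme that makes the first step of glutathione synthesis, went from 60.04, 64.5 and 67.5 CPM to 74.4, 81.6 and 80.5 CPM (log2 0.30, SE 0.0717, adjusted p = 0.00321). Nfe2l2 went from 125, 132 and 129 CPM to 149, 156 and 149 CPM (log2 0.23, SE 0.0673, adjusted p = 0.0133).

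Keap1 and Txnrd1 passed narrowly. Keap1 stood at 37.3, 40.8 and 39.96 CPM untreated and at 46.8, 45.3 and 51.2 CPM after auxin (log2 0.28, SE 0.0991, adjusted p = 0.0434). Txnrd1, the cytosolic thioredoxin reductase, stood at 266, 251 and 234 CPM untreated and at 278, 297 and 296 CPM after auxin (log2 0.21, SE 0.0720, adjusted p = 0.0342). Both genes' groups were separate, but the calls depended on single libraries. Keap1 was no longer called without untreated replicate 1, 2 or 3 (adjusted p = 0.0940, 0.0715 and 0.0759) or treated replicate 1 or 3 (0.0674 and 0.153), and Txnrd1 was no longer called without untreated replicate 2 or 3 (0.0826 and 0.156) or treated replicate 2 or 3 (0.0901 and 0.0879). Among the genes not called, Gstm1 had a log2 change of 0.29 (adjusted p = 0.0664, and 0.00857 with no filter on low counts or 0.00275 with the 2 groups alone), Gclm of 0.14 (0.253), Gsta4 of -0.08 (0.583) and Hmox1 of -0.12 (0.396).

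Untreated libraries of the later number set offered a further comparison, chosen after seeing the data. In WAPL, PDS5AB-NIPBL and WAPL-NIPBL cells without treatment, Gclc stood between 76.0 and 81.9 CPM and Txnrd1 between 257 and 303 CPM, ranges that hold most auxin-treated TIR1 libraries (74.4 to 81.6 CPM and 278 to 297 CPM). Against the mean of these 3 untreated groups, the log2 difference of auxin-treated TIR1 cells was 0.00 for Gclc (SE 0.0580, adjusted p = 0.980) and 0.04 for Txnrd1 (SE 0.0585, adjusted p = 0.642). Srxn1, at 51.2 to 73.0 CPM in the later untreated libraries, was lower than in auxin-treated TIR1 cells, with a log2 difference of 0.56 (SE 0.0599, adjusted p = 1.47e-08). Nfe2l2 and Keap1 were also higher in auxin-treated TIR1 cells, by 0.29 (SE 0.0540, adjusted p = 0.000116) and 0.36 (SE 0.0790, adjusted p = 0.000708). In this comparison 3 of the 10 genes were called, beside 31.1% of all genes tested. It sets TIR1 cells against other lines, so line and treatment cannot be told apart in it.

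**Figure D2:**
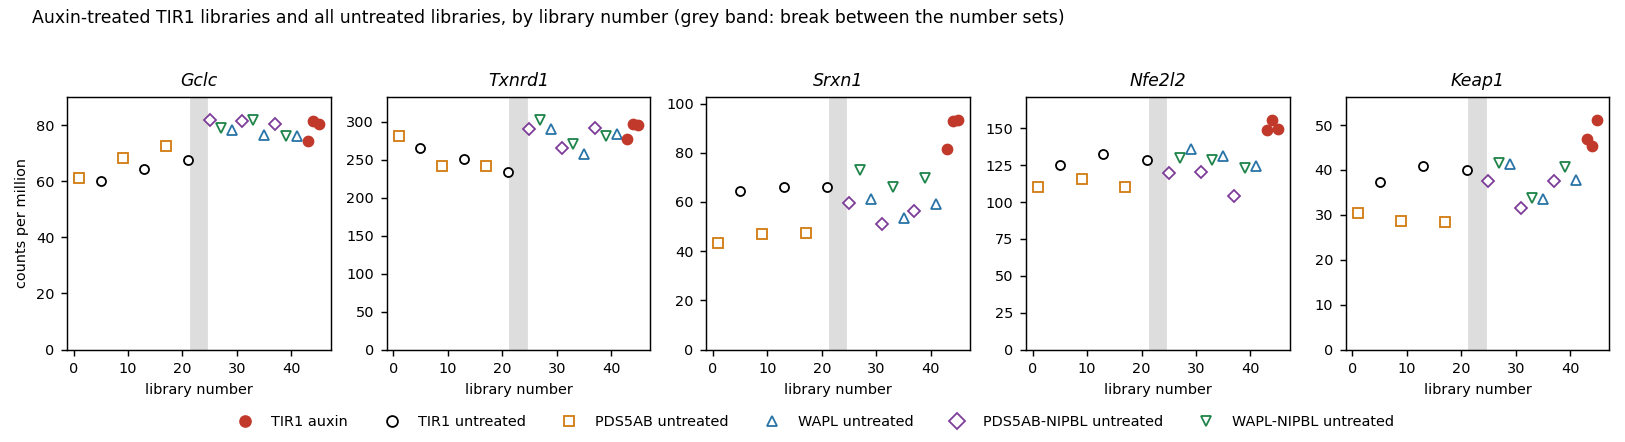
Level in CPM (y axis, from 0) of 5 genes against the library number in the labels (x axis) for auxin-treated TIR1 libraries (filled) and all untreated libraries (open, by line), with the break between the number sets in grey. The 3 auxin-treated TIR1 libraries lie among the later-numbered untreated libraries for Txnrd1, as do those at 81.6 and 80.5 CPM for Gclc, the other being below them at 74.4 CPM, and all 3 lie above all of them for Srxn1, Nfe2l2 and Keap1.

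In the lines with degrons, treatment was followed by the most calls in PDS5AB cells and the fewest in WAPL-NIPBL cells. In PDS5AB cells 5 of the 9 genes other than Osgin1 were higher after auxin and 1 lower, where 25.8% of all genes tested were called higher and 20.2% lower. In WAPL cells 3 were higher and 1 lower, beside 17% and 15.8% of all genes. PDS5AB-NIPBL cells had 3 higher and 0 lower, beside 11.4% and 8.06%, and WAPL-NIPBL cells 1 higher and 0 lower, beside 5.11% and 3.45%. The median log2 change of the 9 genes was 0.22, 0.18, 0.18 and 0.09 in the 4 lines in that order, where the median over all genes tested lay between 0.00 and 0.04. In bulk RNA, fewer cells of a type and less RNA per cell cannot be told apart. Over the same libraries the summed level of the embryonic stem cell markers was 6235 to 6990 CPM untreated and 4167 to 4531 CPM treated in PDS5AB cells, 6261 to 6504 and 4938 to 5149 in WAPL cells, 6681 to 6998 and 5587 to 5941 in PDS5AB-NIPBL cells, and 6364 to 6509 and 5329 to 5493 in WAPL-NIPBL cells. In TIR1 cells it was 6319 to 6687 and 6187 to 6609 CPM. Of 6 primitive endoderm markers (Gata6, Gata4, Sox17, Dab2, Sox7 and Pdgfra) none was at 0 in a group. Under 1 CPM were 1 of them in either PDS5AB group and up to 4 elsewhere (untreated TIR1), so their sum rests on few genes. Their summed level was 24.2 to 26.9 CPM untreated and 58.5 to 71.9 CPM treated in PDS5AB cells, and 7.48 to 8.45 and 9.82 to 11.1 CPM in TIR1 cells. In the WAPL, PDS5AB-NIPBL and WAPL-NIPBL lines its range was likewise higher after treatment, without overlap. The part of these cell states in the results was not tested.

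**Figure D3:**
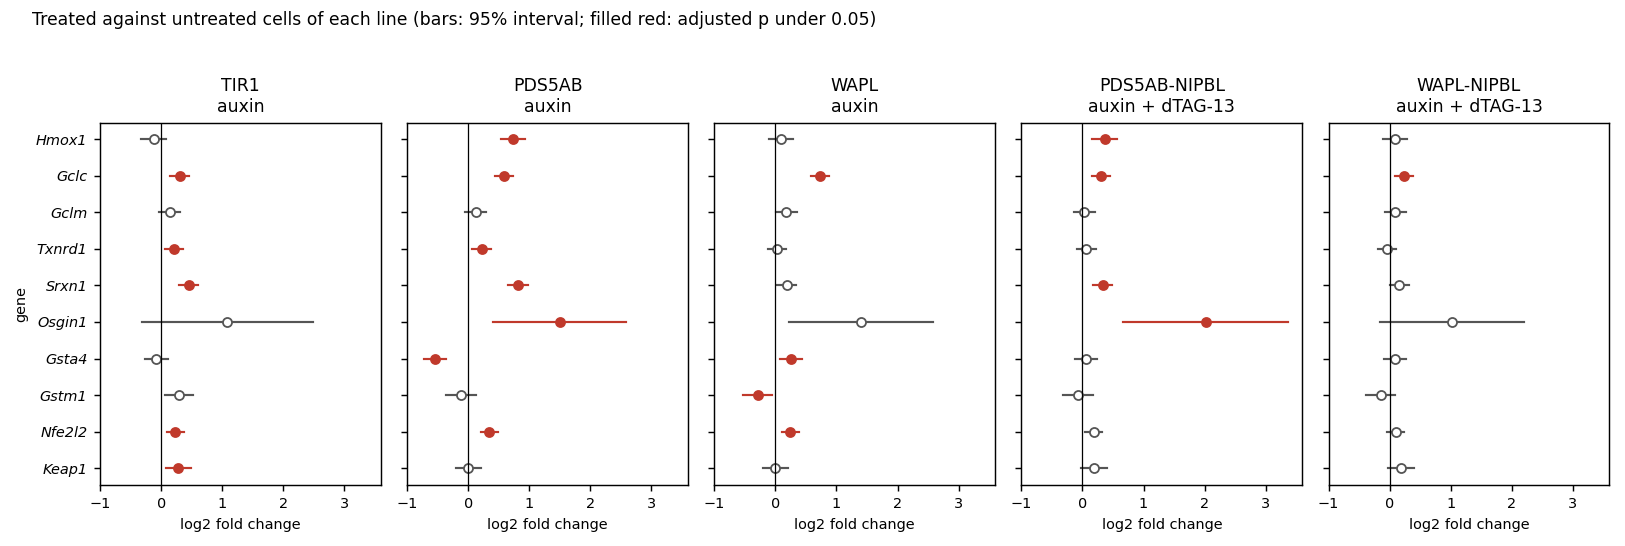
Log2 fold change of treated against untreated cells (x axis) for the 10 genes (y axis) in each line, with 95% intervals, filled red where the adjusted p was under 0.05. Gclc is filled in all 5 lines, Gclm in none, and Osgin1 was tested only through its treated libraries.

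Gclc was called higher in all 5 lines, and was alone among the 10 genes in this, although in TIR1 cells the call ended with the later-numbered control (log2 -0.003, adjusted p = 0.980). Of all genes tested, 1.17% were called higher in all 5 effects, which share no library. Gclc (chromosome 9, 77754535 to 77794485, plus strand) stood at 61.2, 68.2 and 72.6 CPM in untreated PDS5AB cells and at 90.9, 101 and 112 CPM after auxin (log2 0.59, SE 0.0714, adjusted p = 8.55e-08). In WAPL cells it stood at 78.2, 76.4 and 76.1 CPM untreated and at 127, 131 and 127 CPM after auxin, the highest level of any group (log2 0.74, SE 0.0713, adjusted p = 2.29e-09). In the lines that also received dTAG-13, PDS5AB-NIPBL cells went from 81.9, 81.6 and 80.2 CPM to 103, 106 and 90.9 CPM (log2 0.30, SE 0.0716, adjusted p = 0.00302), and WAPL-NIPBL cells from 79.0, 81.8 and 76.0 CPM to 93.7, 96.6 and 89.7 CPM (log2 0.24, SE 0.0714, adjusted p = 0.0293). The groups did not overlap in any of the 5 lines, which was also the case for Srxn1 and Nfe2l2. Within a line such separation was common among all genes tested. It was found for 39.2% in TIR1, 52.8% in PDS5AB, 40.2% in WAPL and 33.4% in PDS5AB-NIPBL cells, and for fewer in WAPL-NIPBL cells. How many of all genes were separate in all 5 lines was not counted. The call in WAPL-NIPBL cells was lost without untreated replicate 1 or 3 (adjusted p = 0.0665 and 0.114) or treated replicate 1 or 2 (0.0595 and 0.0945), and with no filter on low counts (0.0772).

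Gclm, the modifier subunit that pairs with Gclc, passed the test in no line. Gclm (chromosome 3, 122245557 to 122270732, plus strand) stood at 70.1, 57.6 and 61.5 CPM in untreated PDS5AB cells and at 81.6, 64.3 and 59.9 CPM after auxin, with overlap. The largest of its 5 changes was in WAPL cells, from 75.1, 68.3 and 73.1 CPM to 85.5, 84.4 and 74.7 CPM (log2 0.18, SE 0.0829, adjusted p = 0.108), and it reached adjusted p = 0.0400 without treated replicate 3. In the other lines the log2 change lay between 0.03 and 0.14, with 95% intervals that reach at most 0.31. The exons of Gclm share 296 bases with Gm17494 on the opposite strand and 244 bases with Gm6061 on the same strand. Since the recorded counting sets no strand option, fragments there cannot be assigned to a strand and may have been discarded as ambiguous. Gm17494 averaged 14.2 and Gm6061 0 counts per library, where Gclm averaged 2205. Discarded fragments would be missing from all of these counts, so they do not show how many were lost.

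Srxn1 was called in TIR1, PDS5AB and PDS5AB-NIPBL cells. Its untreated level in PDS5AB cells was the lowest of all groups at 43.3, 46.9 and 47.5 CPM, and auxin was followed by 83.8, 80.3 and 77.5 CPM (log2 0.81, SE 0.0768, adjusted p = 8.54e-10). PDS5AB-NIPBL cells went from 59.7, 51.2 and 56.2 CPM to 73.1, 66.8 and 70.0 CPM (log2 0.33, SE 0.0770, adjusted p = 0.00238). In WAPL cells Srxn1 stood at 61.2, 53.4 and 59.2 CPM untreated and at 73.7, 61.9 and 61.7 CPM treated (log2 0.18, SE 0.0764, adjusted p = 0.0682). Same-numbered replicates deviated together in the degron lines, and with a replicate block the adjusted p in WAPL cells was 0.0429. It also came under the threshold without untreated replicate 1 (0.0416) and without treated replicate 2 or 3 (0.0257 and 0.0256). In WAPL-NIPBL cells the log2 change was 0.16 (SE 0.0762, adjusted p = 0.221).

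Txnrd1 (chromosome 10, 82833951 to 82897712, plus strand) was called in PDS5AB cells besides TIR1. In PDS5AB cells it stood at 281, 242 and 242 CPM untreated and at 325, 289 and 275 CPM after auxin. The groups overlapped, and the log2 change of 0.22 (SE 0.0719) passed with adjusted p = 0.0141. The call was lost without untreated replicate 2 or 3 (adjusted p = 0.0749 and 0.0889) or treated replicate 1 (0.154), and when the 2 groups were fitted alone (0.118). In WAPL, PDS5AB-NIPBL and WAPL-NIPBL cells its log2 changes were 0.03, 0.06 and -0.04, with adjusted p from 0.626 to 0.803.

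Hmox1, which encodes the heme oxygenase that is among the most inducible NRF2 targets and is also repressed by BACH1, was called higher in both lines with PDS5A and PDS5B degrons and not in TIR1 or the WAPL lines. Hmox1 (chromosome 8, 75093621 to 75100589, plus strand) stood at 57.1, 59.9 and 61.4 CPM in untreated PDS5AB cells and at 97.9, 104 and 95.5 CPM after auxin (log2 0.73, SE 0.0956, adjusted p = 2.66e-07). PDS5AB-NIPBL cells went from 57.2, 56.5 and 46.4 CPM to 66.8, 77.6 and 61.4 CPM (log2 0.36, SE 0.0970, adjusted p = 0.00737), a call that was lost without untreated replicate 3 (0.0813) or treated replicate 2 (0.0814). In TIR1 cells Hmox1 stood at 66.9, 57.2 and 64.7 CPM untreated and at 65.3, 57.1 and 51.0 CPM after auxin, with overlap. The log2 changes were 0.09 in both WAPL cells (SE 0.0959, adjusted p = 0.524) and WAPL-NIPBL cells (SE 0.0963, adjusted p = 0.680).

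Osgin1, an NRF2-responsive gene for an oxidative stress induced growth inhibitor, was close to the limit of detection. Its counts were 3, 1 and 2 fragments in untreated TIR1 libraries and 7, 4 and 8 after auxin. They were 3, 4 and 6 in untreated PDS5AB libraries and 13, 10 and 11 after auxin, and 6, 0 and 4 against 10, 8 and 11 in WAPL cells. PDS5AB-NIPBL libraries held 1, 3 and 2 fragments untreated and 9, 3 and 10 treated, and WAPL-NIPBL libraries 2, 7 and 2 against 8, 7 and 11. Summed over 3 libraries and scaled to depth, the ratio of treated to untreated was 2.15 in TIR1 (95% interval 0.827 to 6.59), 2.86 in PDS5AB (1.47 to 5.90), 2.68 in WAPL (1.27 to 6.16), 4.28 in PDS5AB-NIPBL (1.68 to 12.9) and 2.05 for WAPL-NIPBL (0.977 to 4.59). These intervals cover counting error only. The ratio was above 1 in each line. No untreated library reached the filter's minimum, and 7 treated libraries did, so that Osgin1 entered the test only because it was high after treatment. Its fitted calls are therefore given no weight, and the counts and ratios above are a description.

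The glutathione transferases, which conjugate glutathione to electrophiles, were called in both directions. Gsta4 (chromosome 9, 78182774 to 78209349, plus strand) went down in PDS5AB cells, from 406, 493 and 458 CPM to 284, 330 and 318 CPM (log2 -0.54, SE 0.0874, adjusted p = 7.65e-06), the lowest level of the 10 groups. In WAPL cells it stood at 472, 412 and 399 CPM untreated and at 595, 471 and 460 CPM after auxin. These groups overlapped, and the log2 change of 0.25 (SE 0.0871, adjusted p = 0.0263) was no longer called without untreated replicate 2 or 3 (0.0695 and 0.0979) or treated replicate 1 (0.223), nor with the 2 groups fitted alone (0.0728). Gsta4 in the other 3 lines had log2 changes of -0.08 to 0.09, none called.

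Gstm1 (chromosome 3, 108012255 to 108017973, minus strand) was set apart by its low level in PDS5AB cells, 26.1, 28.1 and 26.6 CPM untreated and 26.1, 24.8 and 23.4 CPM after auxin, where no other library was below 38.5 CPM. It was lower after auxin in WAPL cells, at 58.2, 47.2 and 43.3 CPM against 69.0, 58.5 and 54.4 CPM, with overlap (log2 -0.29, SE 0.112, adjusted p = 0.0442). Without untreated replicate 1 or 2 (adjusted p = 0.301 and 0.0660) or treated replicate 2 or 3 (0.157 and 0.282), and with the 2 groups fitted alone (0.130), this call was lost. Of the distinct stretches of 75 bases in Gstm1 transcripts, 11.7% also occur in other genes, most of them in Gstm2-ps1, so that part of its fragments may have been discarded as ambiguous and its level is uncertain. In the fit over all libraries no treatment raised Gstm1 past the threshold, but in TIR1 cells it passed with no filter, with the 2 groups alone (both given above) and with a replicate block (adjusted p = 0.0134).

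Nfe2l2 and Keap1, the factor and its inhibitor, changed by small amounts. Nfe2l2 (chromosome 2, 75675513 to 75704641, minus strand) stood at 110, 116 and 110 CPM in untreated PDS5AB cells and at 148.3, 140.5 and 135.9 CPM after auxin (log2 0.34, SE 0.0675, adjusted p = 0.000123). In WAPL cells it went from 136, 132 and 124 CPM to 174, 147 and 143 CPM (log2 0.25, SE 0.0673, adjusted p = 0.00520, and 0.0504 without treated replicate 1). PDS5AB-NIPBL cells showed 120, 120 and 104 CPM untreated and 134, 124 and 132 CPM treated. There the log2 change was 0.18 (SE 0.0678) with adjusted p = 0.0558, and 0.0192 with a replicate block. It also passed without untreated or treated replicate 2 (0.0462 and 0.0395). In WAPL-NIPBL cells the log2 change was 0.10 (SE 0.0675, adjusted p = 0.447). Keap1 (chromosome 9, 21229730 to 21239361, minus strand) had log2 changes of 0.00 in both PDS5AB and WAPL cells, and of 0.19 in both PDS5AB-NIPBL (SE 0.101, adjusted p = 0.196) and WAPL-NIPBL cells (SE 0.1000, adjusted p = 0.302). Keap1 shares 510 exon bases, 10.9% of its length, with Gm16754 on the opposite strand, which averaged 46.3 counts per library against 1111 for Keap1. As for Gclm, these counts do not show how many fragments were discarded as ambiguous.

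Before any treatment the PDS5AB line already differed from TIR1 cells. It had 5 of the 10 genes lower and 0 higher, where 16.5% of all genes tested were called lower. Gstm1 was lower by 0.89 on the log2 scale (SE 0.116, adjusted p = 3.43e-07), Srxn1 by 0.51 (SE 0.0770, adjusted p = 4e-06) and Keap1 by 0.43 (SE 0.101, adjusted p = 0.00115). Gclm (log2 -0.25, SE 0.0833, adjusted p = 0.0219) and Nfe2l2 (log2 -0.20, SE 0.0676, adjusted p = 0.0207) were lower too. The calls of Gclm and Nfe2l2 ended without single libraries, for Gclm without untreated TIR1 replicate 1 (0.0989) or PDS5AB replicate 2 or 3 (0.134 and 0.0838) and for Nfe2l2 without PDS5AB replicate 1 or 3 (0.0555 and 0.0683) or TIR1 replicate 2 (0.0746). Both groups belong to the earlier library numbers. The summed level of the 6 primitive endoderm markers was 24.2 to 26.9 CPM in untreated PDS5AB and 7.48 to 8.45 CPM in untreated TIR1 cells, and its part in these differences was not tested.

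The other untreated lines are of the later library numbers, so line and number set cannot be told apart in their comparison with untreated TIR1. Gclc was higher in all 3, by 0.27 in WAPL (SE 0.0720, adjusted p = 0.0128), 0.34 in PDS5AB-NIPBL (SE 0.0720, adjusted p = 0.000421) and 0.30 in WAPL-NIPBL cells (SE 0.0721, adjusted p = 0.00210) on the log2 scale. These comparisons share the untreated TIR1 libraries. Of the 10 genes, 1 was called in WAPL cells (beside 14% of all genes), 2 in PDS5AB-NIPBL cells (34.3%) and 2 in WAPL-NIPBL cells (28%). Srxn1 was lower in PDS5AB-NIPBL cells by 0.23 (SE 0.0769, adjusted p = 0.0196), which was lost without PDS5AB-NIPBL replicate 2 (0.145) or TIR1 replicate 2 or 3 (0.0542 and 0.0524). Gstm1 was higher in WAPL-NIPBL cells by 0.35 (SE 0.113, adjusted p = 0.0215), lost without WAPL-NIPBL replicate 1 or 2 (0.0537 and 0.0678) or TIR1 replicate 2 or 3 (0.0691 and 0.0507). Between the 2 lines with a WAPL degron, which share a number set, Srxn1 alone was called, higher in WAPL-NIPBL than in WAPL cells by 0.26 (SE 0.0766, adjusted p = 0.0230), beside 10.7% of all genes. That call was lost without WAPL-NIPBL replicate 1 or 3 (0.111 and 0.0665) or WAPL replicate 2 (0.138).

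Whether a degron line responded differently from TIR1 was tested as a difference of treatment effects. All 4 such differences share the TIR1 libraries. In PDS5AB cells 4 of the 10 genes differed, beside 26.3% of all genes. Hmox1 responded more by 0.86 on the log2 scale (SE 0.135, adjusted p = 2.2e-05), Srxn1 by 0.36 (SE 0.108, adjusted p = 0.0127) and Gclc by 0.28 (SE 0.101, adjusted p = 0.0358), and Gsta4 fell in PDS5AB cells where its change in TIR1 cells (log2 -0.08) was not called (log2 difference -0.47, SE 0.123, adjusted p = 0.00531). Srxn1 began lower in PDS5AB than in TIR1 cells, at a mean of 45.9 against 65.5 CPM. After auxin its mean was 80.5 against 89.3 CPM, with overlap, so its larger change did not end at a higher level. Hmox1 and Gsta4 kept their calls in each fit without 1 library. The Gclc difference was lost in 8 of 12 such fits (adjusted p up to 0.202, without PDS5AB treated replicate 3), with all genes kept whatever their counts (0.186) and in a fit of just these groups (0.0780), and the Srxn1 difference without TIR1 treated replicate 1 (0.0609) and with no filter (0.0536). Among the genes not called, Gstm1 (log2 difference -0.41, adjusted p = 0.0589) passed in 5 of 19 other fits and Keap1 (-0.28, 0.154) in 3 of 19.

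In WAPL cells the effect exceeded that in TIR1 for Gclc by 0.44 (SE 0.101, adjusted p = 0.00202) and was below it for Gstm1 (log2 difference -0.58, SE 0.159, adjusted p = 0.00815), beside 20.7% of all genes called. PDS5AB-NIPBL cells differed from TIR1 in Hmox1, by 0.49 (SE 0.136, adjusted p = 0.0197), beside 10.1% of all genes. The Hmox1 call ended without PDS5AB-NIPBL untreated replicate 3 (0.0818) or treated replicate 2 (0.103), or without TIR1 untreated replicate 1 (0.0768) or treated replicate 3 (0.0830). In WAPL-NIPBL cells 0 of 10 genes differed by edgeR's quasi-likelihood test, beside 7.04% of all genes, with 3 at an unadjusted p under 0.05, namely Txnrd1, Srxn1 and Gstm1. A replicate block called 2 of the 10 genes there, beside 10.9% of all genes in that fit. With the 3 later-numbered untreated groups in place of untreated TIR1, the genes called numbered 5 for PDS5AB (35.8% of all genes), 5 for WAPL (35.4%), 2 for PDS5AB-NIPBL (22.7%) and 2 for WAPL-NIPBL cells (19.5%). Hmox1 was then 0.74 higher in PDS5AB cells (SE 0.124, adjusted p = 2.56e-05), and Gclc was called in all 4 lines, at 0.59 (SE 0.0923, adjusted p = 9.29e-06), 0.74 (SE 0.0822, adjusted p = 1.99e-08), 0.30 (SE 0.0824, adjusted p = 0.00765) and 0.25 (SE 0.0822, adjusted p = 0.0336) in the order just given. All 4 differences share the auxin-treated TIR1 libraries and the 3 control groups, which are the untreated groups of the WAPL, PDS5AB-NIPBL and WAPL-NIPBL lines themselves. As the TIR1 effect of Gclc was -0.003 with this control, its 4 calls restate the effects of the lines. Hmox1 was also called in PDS5AB-NIPBL cells (0.36), Srxn1 in PDS5AB (0.25) and Gsta4 in WAPL cells (0.33). Below the TIR1 effect were Srxn1 in WAPL (log2 difference -0.37, adjusted p = 0.00108) and WAPL-NIPBL cells (-0.40, 0.00127), Keap1 in PDS5AB (-0.36) and WAPL cells (-0.36), Gsta4 in PDS5AB (-0.47) and Gstm1 in WAPL cells (-0.42).

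**Figure D4:**
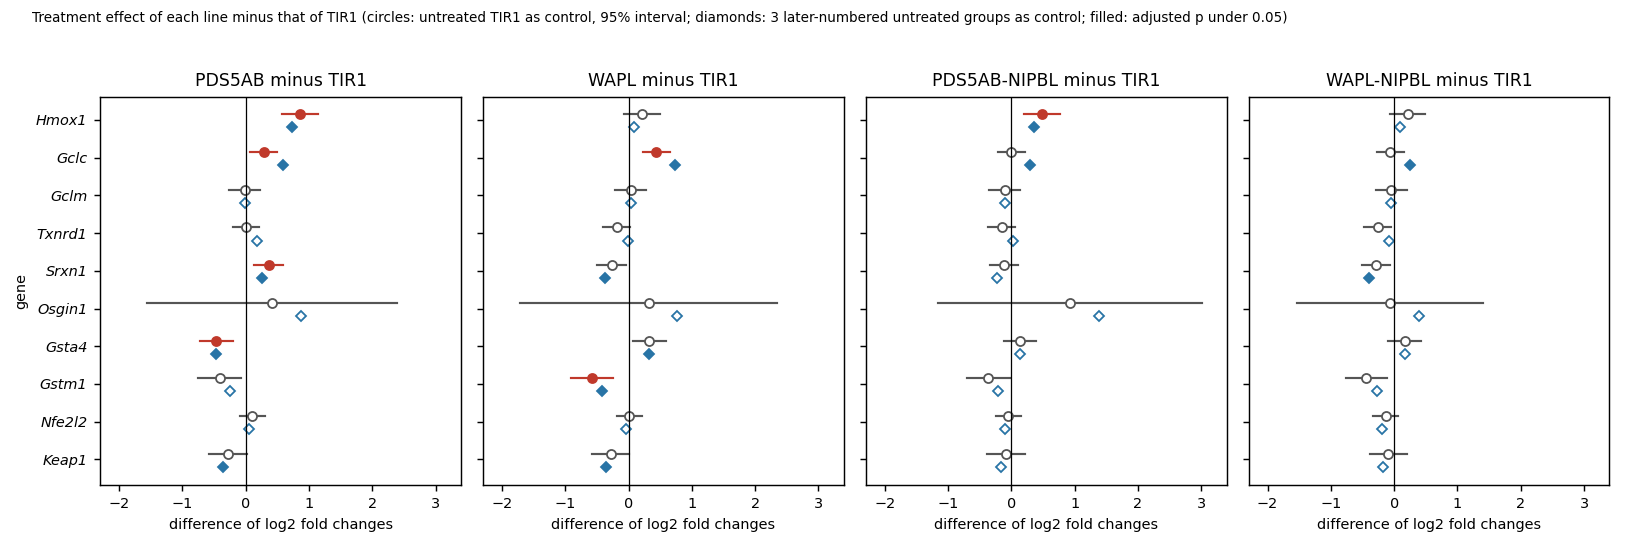
Treatment effect of each line minus that in TIR1 cells on the log2 scale (x axis) for the 10 genes (y axis), with circles and 95% intervals for the untreated TIR1 control and diamonds for the later-numbered untreated groups, filled where the adjusted p was under 0.05. Hmox1 is filled for PDS5AB and PDS5AB-NIPBL with either control, and Gclc is filled in all 4 panels with the later-numbered control.

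The lines with NIPBL-FKBP, which also received dTAG-13, responded less than the line with the same AID fusions for some genes. They carry RAD21-Halo as well, and the PDS5AB and PDS5AB-NIPBL libraries belong to different sets of library numbers. These differences cannot be told apart from dTAG-13 or the loss of NIPBL. Compared with PDS5AB cells, the PDS5AB-NIPBL effect was smaller for Srxn1 (log2 difference -0.48, SE 0.108, adjusted p = 0.00422), and Gsta4 did not fall as in PDS5AB cells (log2 difference 0.60, SE 0.123, adjusted p = 0.00185). These were 2 of 10 genes, beside 9.46% of all genes tested. With a replicate block 4 of the genes differed, beside 13.8% of all genes in that fit, the others being Hmox1 (log2 -0.37, adjusted p = 0.0351, against 0.0816 without the block) and Gclc (log2 -0.29, adjusted p = 0.0372, against 0.0681). Compared with WAPL cells, the WAPL-NIPBL effect was smaller for Gclc alone (log2 difference -0.49, SE 0.101, adjusted p = 0.00236), beside 5.19% of all genes.

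A further 47 NRF2 targets were examined as a list, of which 45 were tested. In TIR1 cells 11 were higher and 5 lower, beside 10.4% and 9.59% of all genes. The counts were 21 and 11 for PDS5AB (beside 25.8% and 20.2% of all genes), 16 and 4 for WAPL (17% and 15.8%), 11 and 1 for PDS5AB-NIPBL (11.4% and 8.06%), and 9 and 1 for WAPL-NIPBL cells (5.11% and 3.45%). The median log2 change was 0.07, 0.22, 0.06, 0.12 and 0.08 in that order, and the medians of all genes were -0.01, 0.04, 0.00, 0.00 and 0.01. Nqo1, the quinone reductase often used as a marker of NRF2 activity and named for that reason rather than by the size of its change, stood at 31.2, 45.4 and 35.9 CPM in untreated TIR1 cells and at 50.5, 62.3 and 60.2 CPM after auxin (log2 0.63, adjusted p = 0.000644). In the PDS5AB and WAPL lines its log2 change was 0.44 (adjusted p = 0.00704) and 0.37 (0.0249), and it was 0.33 (0.0790) and 0.31 (0.162) where dTAG-13 was added as well (PDS5AB-NIPBL first). The Nqo1 call ended without treated replicate 1 in PDS5AB cells (0.0510), and in WAPL cells without treated replicate 1 (0.0993) or untreated replicate 2 or 3 (0.142 and 0.0530).

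Of the 45, 5 were higher in all 5 lines (11.1%, beside 1.17% of all genes tested), and they are named after their values were seen. They are Gss, the second enzyme of glutathione synthesis, the peroxidase Gpx2, the catalase gene Cat, the transferase Gstm3 and Ugdh, which makes UDP-glucuronic acid. Gss was at 81.9, 87.8 and 82.1 CPM in untreated TIR1 cells and at 127, 119 and 128 CPM after auxin (log2 0.57), and its log2 change was 0.68, 0.60, 0.45 and 0.47 in PDS5AB, WAPL, PDS5AB-NIPBL and WAPL-NIPBL cells. Gpx2 changed by 0.62 in TIR1 cells and by 0.96, 1.16, 1.54 and 1.102 in the others. Gstm3 showed 1.87 in TIR1 cells, from 3.34 to 12.4 CPM, and 0.94, 1.12, 0.63 and 0.65 elsewhere. Not all of these calls held without single libraries. In TIR1 cells Gpx2 was no longer called without untreated replicate 1 (adjusted p = 0.0582) or treated replicate 2 or 3 (0.0896 and 0.0798), nor Ugdh without untreated replicate 2 (0.0761) or treated replicate 3 (0.0576), and Cat was not called with the later-numbered control (0.907). In PDS5AB-NIPBL cells the call ended for Gstm3 without untreated replicate 2 or 3 (0.116 and 0.182) or treated replicate 1 or 3 (0.222 and 0.0542), and for Cat without untreated replicate 3 (0.0640). In WAPL-NIPBL cells it ended for Gstm3 without untreated replicate 3 (0.112) or treated replicate 1 (0.0713), and for Ugdh without untreated replicate 2 or 3 (0.0602 and 0.0920) or treated replicate 1 or 2 (0.137 and 0.0540). Gss kept its call in each such fit.

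Among the largest downward changes of the list, Slc7a11, the cystine transporter, was lower in TIR1 cells at 2.22 against 8.10 CPM (log2 -1.91, SE 0.537, adjusted p = 0.0116), a call lost without treated replicate 2 (0.0738) and with the later-numbered control (0.0759). The aldo-keto reductase Akr1b8 was lower in TIR1 (log2 -0.74), PDS5AB (-0.77) and WAPL cells (-0.31). Gsta3, a further glutathione transferase, was lower in PDS5AB (-1.35), PDS5AB-NIPBL (-0.83) and WAPL-NIPBL cells (-0.45), and Idh1 was lower in WAPL (-0.79) and PDS5AB cells (-0.29). The call of Gsta3 in WAPL-NIPBL cells ended without untreated replicate 1 or 3 (0.272 and 0.0996) or treated replicate 2 or 3 (0.219 and 0.0850), and with the 2 groups alone (0.106). In WAPL cells the Akr1b8 call (adjusted p = 0.0474) was lost in 5 of 6 fits without 1 library (up to 0.246, without treated replicate 3), and in PDS5AB cells the Idh1 call was lost without untreated replicate 2 (0.0896) or treated replicate 1 (0.0627). Ptgr1, prostaglandin reductase, was higher in TIR1 (0.60), PDS5AB (0.69) and PDS5AB-NIPBL cells (0.83) and lower in WAPL cells (-0.36). The carbonyl reductase Cbr3 was higher in TIR1 (0.63), PDS5AB (0.54), PDS5AB-NIPBL (0.79) and WAPL-NIPBL cells (0.58). Aox1 was higher in PDS5AB (1.09) and WAPL cells (0.72), the latter call being lost in 4 of 6 fits without 1 library (adjusted p up to 0.168, without untreated replicate 1).

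**Figure D5:**
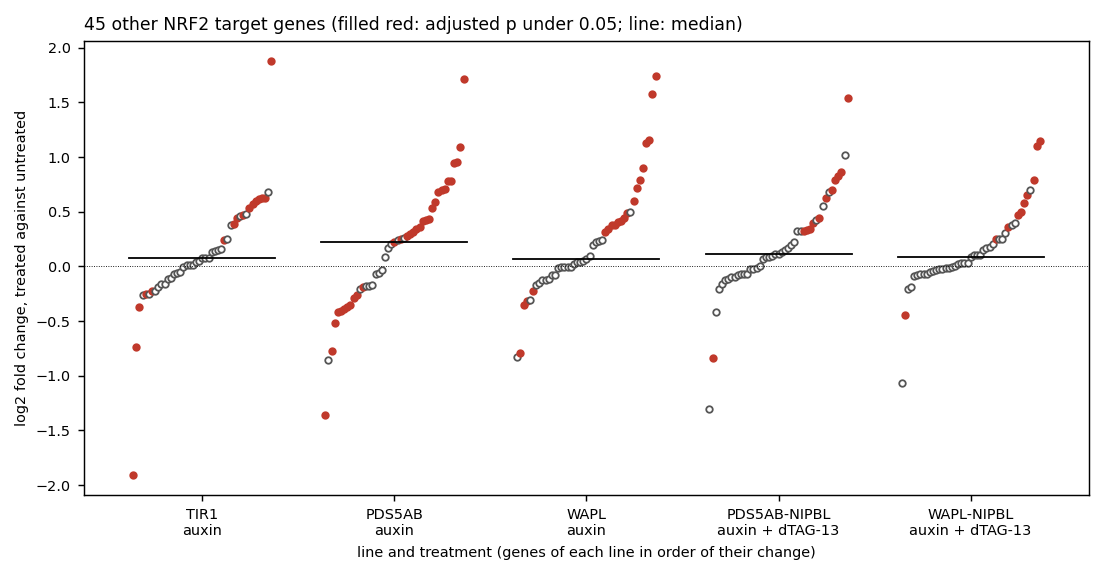
Log2 fold change of treated against untreated cells (y axis) for the 45 other NRF2 targets tested, ordered by change within each line (x axis), filled red where the adjusted p was under 0.05, with a line at the median. Filled points above 0 number 11, 21, 16, 11 and 9 from left to right, and filled points below 0 number 5, 11, 4, 1 and 1.

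Of 16 genes that regulate or partner NRF2, 4 were higher and 1 lower in TIR1 cells (beside 10.4% and 9.59% of all genes), 5 and 3 in PDS5AB (25.8% and 20.2%), 1 and 1 in WAPL (17% and 15.8%), 2 and 1 in PDS5AB-NIPBL (11.4% and 8.06%), and 0 and 1 for WAPL-NIPBL (5.11% and 3.45%). Bach1, the heme-sensing repressor of Hmox1, was higher in TIR1 (log2 0.54, adjusted p = 0.00136) and was at 58.4 against 97.0 CPM in PDS5AB cells (log2 0.73, adjusted p = 6.39e-06). Bach2, its relative, was higher in TIR1 cells (log2 0.61) and lower in PDS5AB (-0.73), WAPL (-1.50), PDS5AB-NIPBL (-0.79) and WAPL-NIPBL cells (-1.44). In PDS5AB cells the small MAF genes Mafk (0.92) and Maff (0.85) were higher and Rbx1, a subunit of the CUL3 ligase, was lower (-0.25). Sqstm1, the autophagy receptor that binds KEAP1, is on the list of targets as well and was higher in PDS5AB (0.59), WAPL (0.44) and PDS5AB-NIPBL cells (0.33). Nfe2l1 was higher in TIR1 (0.21), PDS5AB (0.33) and PDS5AB-NIPBL cells (0.15, adjusted p = 0.0363), and Dpp3 was lower in TIR1 (-0.19) and PDS5AB cells (-0.21). The Dpp3 call in TIR1 cells and the Nfe2l1 call in PDS5AB-NIPBL cells were lost in 6 and 5 of 6 fits without 1 library and with no filter on low counts (adjusted p = 0.199 and 0.309), that of Dpp3 also with the later-numbered control (log2 -0.03, adjusted p = 0.757), and the Dpp3 call in PDS5AB cells without treated replicate 3 (0.0613).

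Other stress programmes were counted in the same way. Of 14 heat shock genes, 2 were higher and 0 lower in TIR1 (beside 10.4% and 9.59% of all genes), 5 and 6 in PDS5AB (25.8% and 20.2%), 3 and 4 in WAPL (17% and 15.8%), 2 and 1 in PDS5AB-NIPBL (11.4% and 8.06%), and 1 and 1 for WAPL-NIPBL (5.11% and 3.45%). Cryab, a small heat shock protein gene, was higher in TIR1 (log2 0.58), PDS5AB (1.68), WAPL (1.55) and PDS5AB-NIPBL cells (0.89), Hspa1b was higher in PDS5AB cells (1.47), and Hspb8 was higher in TIR1 (0.26), PDS5AB (0.78) and PDS5AB-NIPBL cells (0.44). The co-chaperone gene Bag3 was higher in PDS5AB (0.32) and WAPL cells (0.29). Hsph1 was lower in PDS5AB (-0.34) and WAPL cells (-0.42), the mitochondrial chaperonin Hspd1 was lower in PDS5AB cells (-0.57), and Hsp90aa1 was lower in PDS5AB (-0.56), WAPL (-0.45), PDS5AB-NIPBL (-0.25) and WAPL-NIPBL cells (-0.26). In TIR1 cells the Cryab call was lost with the later-numbered control (log2 0.13, adjusted p = 0.608), without untreated replicate 2 or 3 (adjusted p = 0.134 and 0.204) or treated replicate 1 or 3 (0.149 and 0.106), and the Hspb8 call without untreated replicate 2 or 3 (0.0535 and 0.0694) or treated replicate 1 (0.0551). Calls were also lost in 3 of 6 fits without 1 library for Bag3 in both lines (adjusted p up to 0.256 in PDS5AB and 0.174 in WAPL, each without treated replicate 1), for Hsph1 in PDS5AB cells (up to 0.0884, without treated replicate 3) and for Hsp90aa1 in WAPL-NIPBL cells (up to 0.275, without treated replicate 3), in 2 for Hsp90aa1 in PDS5AB-NIPBL cells (up to 0.137, without treated replicate 2) and in 1 for Hsph1 in WAPL cells (0.0532, without untreated replicate 1). Of 4 genes of the metal response, 2 were higher in TIR1 cells, namely the zinc exporter Slc30a1 (0.58) and Mtf1 (0.24, lost without untreated replicate 2 at 0.0838, with no filter at 0.0528 and with the later-numbered control at 0.338, where the log2 difference was 0.08). In PDS5AB cells the metallothioneins Mt1 (-0.72) and Mt2 (-1.07) were lower, in WAPL cells Mtf1 was lower (-0.33), and 0 of 4 were called by edgeR in PDS5AB-NIPBL or WAPL-NIPBL cells, with 1 of them at an unadjusted p under 0.05 in the former and 0 in the latter.

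The aryl hydrocarbon receptor, which binds indoles, drives Cyp1a1 and Cyp1b1. Of 10 genes listed for it 7 were tested, and 6 were higher and 0 lower in TIR1 (beside 10.4% and 9.59% of all genes), 3 and 2 in PDS5AB (25.8% and 20.2%), 4 and 2 in WAPL (17% and 15.8%), 3 and 1 in PDS5AB-NIPBL (11.4% and 8.06%), and 3 and 0 for WAPL-NIPBL (5.11% and 3.45%). Nqo1 is on this list as well. Cyp1a1 stood at 0.478, 0.440 and 0.390 CPM in untreated TIR1 cells and at 74.9, 59.7 and 65.1 CPM after auxin (log2 7.24, SE 0.201, adjusted p = 9.22e-22). The log2 change was 3.71 and 4.53 for PDS5AB and WAPL cells, and 4.72 and 4.89 for PDS5AB-NIPBL and WAPL-NIPBL. Cyp1b1 had 1 to 6 fragments per untreated library and 26 to 469 per treated library. It entered the test only through its treated libraries and is among the genes counted as higher in every line above. Like those of Osgin1, its calls are given no weight. Tiparp was higher in TIR1 cells (log2 0.68) and lower in PDS5AB (-0.68), WAPL (-0.58) and PDS5AB-NIPBL cells (-0.89), and the aldehyde dehydrogenase gene Aldh3a1 was lower in PDS5AB (-0.84) and WAPL cells (-1.77). The Tiparp call in WAPL cells was lost without untreated replicate 2 (adjusted p = 0.0688) or treated replicate 3 (0.0787). In each line the log2 change of Cyp1a1 was larger than that of any of the 10 NRF2 genes.

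Across the 10 group means, each of the 10 genes was matched to the other gene whose level followed it most closely. The nearest were Arf2 for Hmox1 (Pearson's r = 0.975), Tmem189 for Gclc (0.974), Gm6969 for Gclm (0.958), Cltc for Txnrd1 (0.955), Plekho2 for Srxn1 (0.975), mt-Nd1 for Gsta4 (0.965), Bcl3 for Gstm1 (0.980), Fgfrl1 for Nfe2l2 (0.966), Pdxk for Keap1 (0.959) and Glb1 for the sparse Osgin1 (0.984). These are descriptions over 10 groups that share lines and library number sets. Among the 10 genes themselves, r was highest for Gstm1 with Keap1 (0.854), Gclm with Keap1 (0.851) and Gclc with Osgin1 (0.815).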

How the data were processed

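The authors deposited a table of raw counts of fragments per gene for the 30 libraries, made with featureCounts 2.0.1 in paired-end mode on GENCODE vM23 per the file headers, with no strand or multi-mapping option recorded. The submitters' processing notes also name cutadapt and STAR 2.7.7a and the build GRCm38.p6. The labels describe stranded polyA libraries and, in another field, genomic DNA. Of 55421 gene rows, 55154 (99.5%) were matched to a symbol.

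Counts were scaled by TMM (factors 0.950 to 1.13), filtered with filterByExpr (minimum count 10) and tested in edgeR 4.0.16 (R 4.3.3) by the quasi-likelihood F-test, with a mean for each of 10 groups over all 30 libraries (20 residual degrees of freedom) and Benjamini-Hochberg adjustment over 19868 genes. Calls are at an adjusted p under 0.05. Standard errors come from the F statistic. The 16 contrasts were 5 treatment effects, 5 untreated comparisons and 6 differences of effects. RPKM used summed exon length. On simulated counts for the TIR1 comparison over 19868 genes, 100% of changes of log2 1 and 76% of log2 0.5 were recovered. The changed genes had a mean of at least 50 counts, and all genes were given the same spread between replicates. Smaller changes were not simulated, so these shares do not carry over to them or to sparse genes. The depth of 19632704 to 45539021 fragments limits Osgin1 most.

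The 10 genes and the gene lists were chosen with earlier results of these data known. From each list, the 2 called genes per direction with the largest change in each treatment effect (mean of at least 50 counts) are named, with Cyp1a1 and Cyp1b1, together with the other effects in which they were called. Nqo1 and the 5 targets higher in all lines were added. Same-numbered replicates deviated together (correlation of deviations over 0.1 for every pair) in the 4 treatment effects of the degron lines and between untreated WAPL-NIPBL and WAPL cells, and not in the TIR1 effect or the other untreated comparisons. Other settings tried were DESeq2 1.42.0, RLE scaling, no filter, the compared groups alone, a replicate block, a minimum fold of 1.2, each library left out, and, added after seeing the data, the later-numbered untreated groups as the TIR1 control.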

Additional observations from a re-analysis of the deposited data

Results flagged for a closer look

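The tests of differences between lines called 10 single-gene differences, all on the log2 scale by edgeR's quasi-likelihood test. Of all genes tested, 26.3%, 20.7%, 10.1% and 7.04% were called in the PDS5AB, WAPL, PDS5AB-NIPBL and WAPL-NIPBL effects minus TIR1, 9.46% in PDS5AB-NIPBL minus PDS5AB and 5.19% in WAPL-NIPBL minus WAPL, and a count of 10 is to be read against these shares. Against the TIR1 effect, the PDS5AB effect was higher by 0.86 for Hmox1, 0.28 for Gclc and 0.36 for Srxn1, and the difference was -0.47 for Gsta4. The WAPL effect differed from that in TIR1 by 0.44 for Gclc and by -0.58 for Gstm1. The PDS5AB-NIPBL effect differed from that in TIR1 by 0.49 for Hmox1. Between lines of the same AID fusions, the PDS5AB-NIPBL effect minus the PDS5AB effect was -0.48 for Srxn1 and 0.60 for Gsta4, and the WAPL-NIPBL effect minus the WAPL effect was -0.49 for Gclc. The 7 differences from TIR1 share its libraries, whose untreated and treated groups belong to different sets of library numbers.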

How the results depend on the processing

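Counts below are of the 10 genes, Osgin1 included, unless other targets are named, with the share of all genes called in the same fit in brackets. RLE size factors changed no call of the 10 genes, and DESeq2 added 4 calls, Nfe2l2 in the PDS5AB-NIPBL effect (adjusted p = 0.0409), Hmox1 in untreated PDS5AB-NIPBL against TIR1 cells (0.0496), Gsta4 in the WAPL effect minus TIR1 (0.0478) and Gclc in the PDS5AB-NIPBL effect minus PDS5AB (0.0388). A minimum fold of 1.2 left 1 gene called in the TIR1 effect (5.54%), 1 in WAPL (16.8%) and 0 in both PDS5AB-NIPBL (7.57%) and WAPL-NIPBL cells (2.85%), 2 between untreated PDS5AB and TIR1 cells (19%), 0 in the other untreated comparisons (3.99% to 17.1%), 1 for the PDS5AB effect minus TIR1 (14.3%), 0 for the WAPL (11.4%) and PDS5AB-NIPBL effects (3.89%) minus TIR1, 1 for PDS5AB-NIPBL minus PDS5AB (2.66%) and 0 for WAPL-NIPBL minus WAPL (1.86%). Of the 45 other targets it left 8, 15, 11, 6 and 1 in TIR1, PDS5AB (28%), WAPL, PDS5AB-NIPBL and WAPL-NIPBL cells, the shares of the other lines being those just given. With no filter the counts were 0 in the WAPL-NIPBL effect (4.22%), 3, 2 and 1 for untreated PDS5AB (15%), WAPL (6.84%) and PDS5AB-NIPBL cells (15.8%) against TIR1, and 2 and 1 for the PDS5AB-NIPBL (5.40%) and WAPL-NIPBL effects (4.15%) minus TIR1. Fitting the compared groups alone gave 2 in the WAPL effect (27.5%), 2 for untreated WAPL cells (14.6%) and 1 for the WAPL-NIPBL effect minus TIR1 (11.9%). With later-numbered untreated groups as control, 3 of the 10 genes and 25 other targets were called in the TIR1 effect (31.1%), and 5, 2 and 2 genes in the WAPL (35.4%), PDS5AB-NIPBL (22.7%) and WAPL-NIPBL effects (19.5%) minus TIR1. The cause was not tested, except that a minimum fold asks for more than a difference from 0.

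Under the replicate block the counts became 2 for untreated WAPL (18.3%) and 5 for untreated PDS5AB-NIPBL cells (38.4%) against TIR1, 4 and 2 for the WAPL (25.4%) and WAPL-NIPBL effects (10.9%) minus TIR1, and 4 for the PDS5AB-NIPBL effect minus PDS5AB (13.8%). In these comparisons with TIR1 the replicates share a number only. Untreated PDS5AB and TIR1 replicates correlated best with their own number in 3 of 3 cases. The block ended no call of the 10 genes, and of the calls it added in paired comparisons, that of Osgin1 in WAPL cells (adjusted p = 0.0406) has the limit of its filter, and the others are given above.

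Leaving out each library in turn gave 3 to 4 genes in the TIR1 effect (13.1% to 16.4%), 5 to 7 in PDS5AB (39.5% to 42.2%), 2 to 5 in WAPL (25.7% to 31%), 2 to 5 in PDS5AB-NIPBL (13.9% to 16.3%) and 0 to 1 for the WAPL-NIPBL line (5.60% to 6.51%). Without Osgin1 the ranges were 3 to 4, 5 to 6, 2 to 5, 2 to 4 and 0 to 1 in that order. Against untreated TIR1 it gave 3 to 5 for PDS5AB (26.7% to 30.1%), 1 for WAPL (7.81% to 12.9%), 1 to 4 for PDS5AB-NIPBL (26.7% to 29.8%) and 1 to 3 for WAPL-NIPBL cells (19.5% to 25.2%), and 0 to 1 for untreated WAPL-NIPBL against WAPL cells (7.04% to 8.61%). For effects minus TIR1 it gave 3 to 6 for PDS5AB (21.2% to 26.1%), 2 to 3 for WAPL (17% to 21.1%), 0 to 1 for PDS5AB-NIPBL (7.25% to 9.34%) and 0 to 1 for WAPL-NIPBL cells (4.56% to 6.40%), and 6 to 8 of the 45 other targets in the WAPL-NIPBL effect. The sign of Gclc changed in the TIR1 effect with the later-numbered control (log2 -0.003). In the PDS5AB-NIPBL effect minus TIR1, not called at adjusted p = 0.994, Gclc was 0.006 with the groups alone, 0.300 with the later-numbered control and -0.067 to 0.043 in the 12 fits without 1 library, of which 3 turned its sign. In the WAPL-NIPBL effect minus TIR1 it was 0.245 with the later-numbered control. Depth limits Osgin1, whose calls and missing calls are both given no weight because of its filter. Its ratios of 2.05, 2.15 and 2.68 were not called in the main fit, and that of 2.68 in WAPL cells was called in 2 of 11 other fits.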
